A study of Mus musculus with 10 samples.

Results

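Dorsal skin of Dlx4 KO mice at postnatal day 60 (P60) was compared with dorsal skin of Dlx4 KO mice at postnatal day 1 (P1), within the KO genotype alone. Expression was measured by RNA sequencing and given as RPKM, a read count scaled by transcript length and by the size of the library. Of 24543 entries in the expression table, 13735 reached at least 1 RPKM in 2 or more of the 5 KO libraries, and these genes were the members of the comparison. The adult group was Dlx4 KO at P60 with 2 libraries, and the newborn group was Dlx4 KO at P1 with 3 libraries. Skin with an intact gene, Dlx4 WT at P60 (2 libraries) and at P1 (3 libraries), served only to ask whether the change with age differed between genotypes. All mice were of the C57BL/6 strain, and all libraries came from total RNA. The labels call the WT mice littermates of the KO mice, without saying which shared a litter. How the ablation was made and whether animals were pooled are not stated in the labels. The p-values therefore measure the spread between these samples, part of which may be technical.

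Mouse pups are born with skin that is still growing. Follicle matrix cells divide and fill the first hair shafts with keratins, melanocytes load pigment into them, fibroblasts lay down the dermis, and the thin sheet of muscle under the skin still carries fetal contractile proteins. In young adult mice of this age most follicles rest between hair cycles, the epidermis is thinner, and resident immune cells have settled in epidermis and dermis. Dlx4 encodes a homeobox transcription factor of the distal-less family, whose neighbour on the chromosome, Dlx3, is needed for hair shaft formation. In whole skin, fewer cells of a type and less RNA per cell cannot be told apart, and each level below is that of the tissue.

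The KO libraries held 74916106 and 55987713 alignments at P60, against 52558983, 38752980 and 36131011 at P1. The P60 libraries shared a sequencing run and the P1 libraries shared another, so a change with age cannot be told apart from a change of run. The 10 highest genes took 12.46% and 11.59% of the summed RPKM at P60, against 7.9%, 6.97% and 7.35% at P1. Transcripts of the Y chromosome separated the libraries in another way. Eif2s3y, a Y-linked translation factor gene, had 24.8 and 25.6 RPKM at P60, against 0, 35.0 and 0 RPKM at P1. Xist, a noncoding RNA made from the inactive X of females, had 0.105 and 0.0792 RPKM at P60, against 29.2, 0.0536 and 39.8 RPKM at P1. KO P1 replicate 2 thus carried Y-linked RNA like both P60 libraries, and the remaining P1 libraries carried Xist. Sex was mixed with age in the KO libraries, and its part in the change with age was not tested beyond a comparison of P60 with KO P1 replicate 2 alone. Dlx4 itself had 0.000294 and 0 RPKM at P60, against 1.77, 2.45 and 1.62 RPKM at P1. Reads on the ablated gene were thus next to absent at P60, where WT skin was also low, with 0 and 0.125 RPKM, and present at P1, where WT skin had 2.93, 3.78 and 3.42 RPKM.

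Most of the transcriptome differed between the ages. In limma on log2(RPKM + 0.5), with Benjamini-Hochberg adjustment over all 13735 genes, 10078 genes passed an adjusted p of 0.05, or 73.4% of those tested. Genes past this threshold are called higher or lower below. Of them 3138 (22.8% of those tested) were higher at P60 and 6940 (50.5%) were lower. With a change of at least 1 on the log2 scale as well, 1318 genes (9.60%) were higher and 2747 (20.0%) lower, and a change of at least 4 was reached by 55 higher and 123 lower genes. The 2 P60 libraries lay above all 3 P1 libraries for 3626 genes (26.4%) and below them for 7711 (56.1%). The median 95% interval of a change reached 0.287 to either side on the log2 scale.

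The balance of higher and lower calls depended on scaling. As deposited, the median log2 change of all genes tested was -0.32, so a gene at 0 had gained on most others. After rescaling the libraries with median-of-ratios size factors the median was close to 0, and 4805 genes were called higher (35.0%) and 4858 lower (35.4%). Higher genes made up 31.1% of the calls as deposited, 49.7% with median-of-ratios factors and 47.7% after quantile normalization. No gene was called in opposite directions by the values as deposited and by either rescaling. Gene lists are therefore read against -0.32, and the median-of-ratios value is given where it changes the picture.

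Of the 13735 members, 12243 reached 1 RPKM in at least 1 library of each age, 402 only at P60 and 1090 only at P1. A gene of the last 2 kinds passed the filter through the age at which it was high, so the counts per list below describe the genes that passed and are no support for a direction. The genes that stood nearest to the filter were Gpr65, whose second-highest KO library had 1.0001 RPKM, just inside, and Gchfr, with 0.99905 RPKM, just outside.

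**Figure D1:**
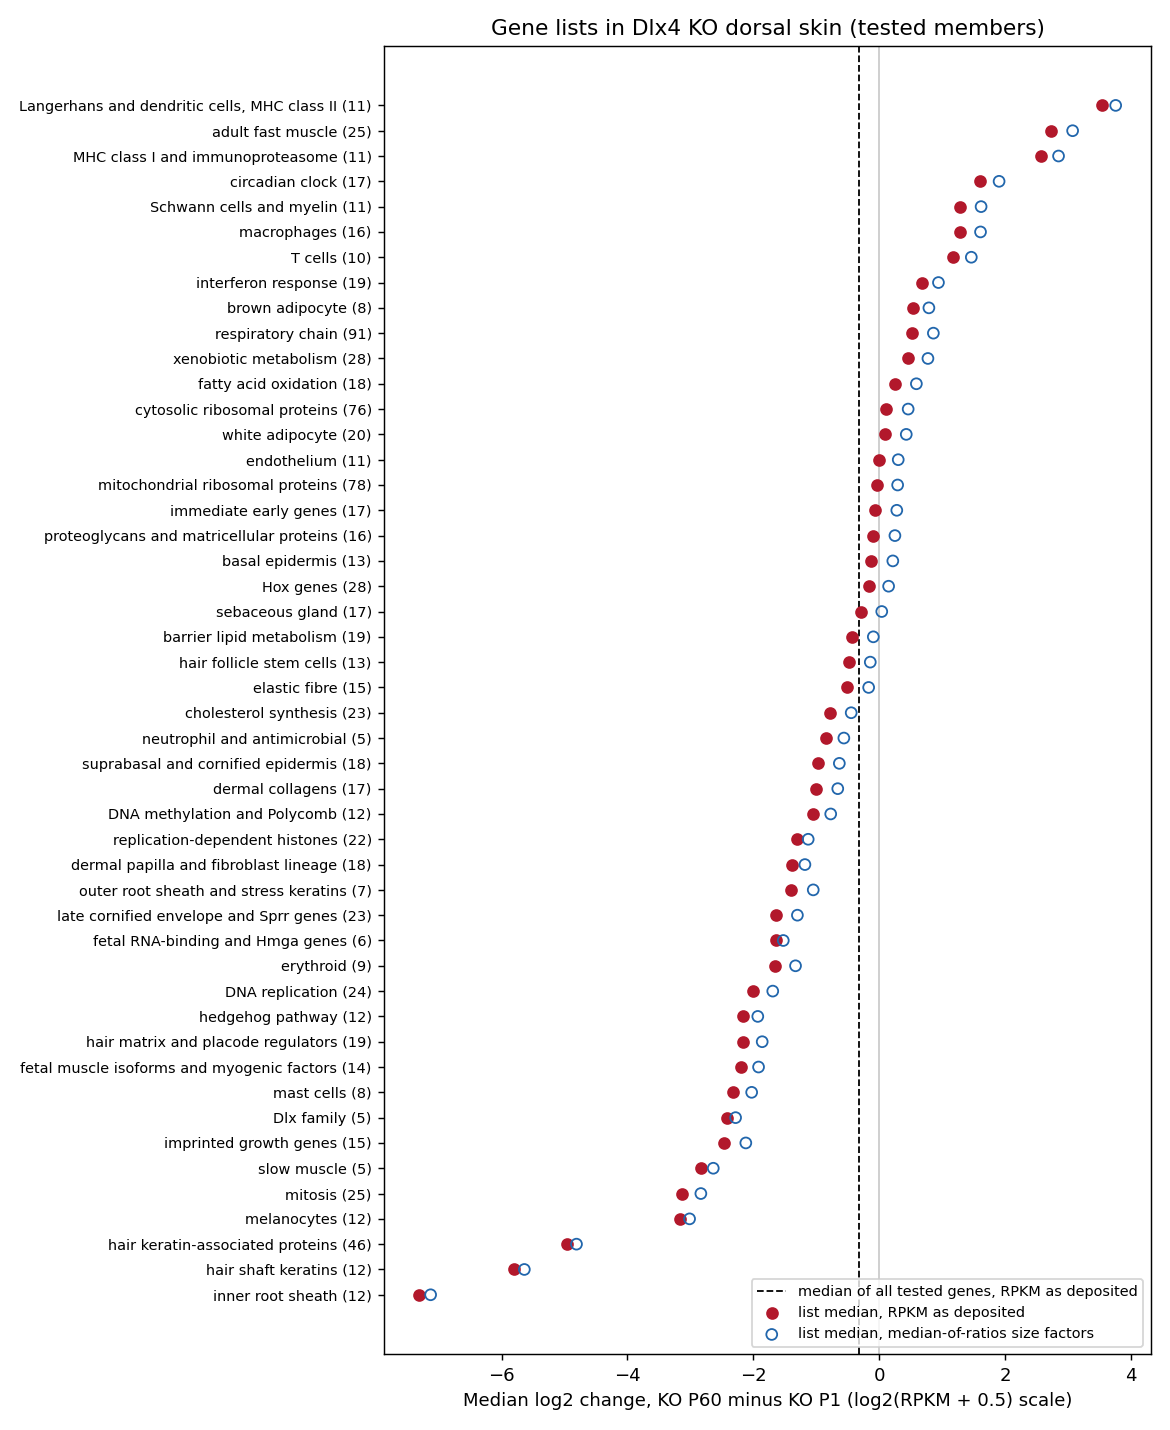
Median log2 change, KO P60 minus KO P1, over the members of each gene list that passed the filter (numbers in brackets), on the log2(RPKM + 0.5) scale. Filled circles use RPKM as deposited, open circles use median-of-ratios size factors, and the dashed line marks the median of all tested genes, -0.32; the inner root sheath, hair shaft keratin and keratin-associated protein lists lie lowest, between -4.95 and -7.31, and the Langerhans and dendritic cell list highest, at 3.53.

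Hair follicle genes were far lower at P60. Inner root sheath genes, which form the rigid sleeve that moulds the growing hair, had a median log2 change of -7.31, with 11 of the 12 that passed lower and 1 higher. Of these 12, 9 reached 1 RPKM only at P1, so the list entered the comparison largely through the age at which it was high, and its median is a description of the genes that passed. Krt25, an inner root sheath keratin, had 0.0111 and 5.56e-43 RPKM at P60, against 580.1, 825 and 725 RPKM at P1. Krt71, the keratin mutated in curly-coated mouse strains, had 0.145 and 0.0848 RPKM at P60, against 763, 958 and 792 RPKM at P1. Both genes were near nothing at P60 and highly expressed at P1. Changes on the log2 scale were -10.44 ± 0.15 (SE; adjusted p = 4.29e-08) for Krt25 and -10.41 ± 0.13 (SE; adjusted p = 3.27e-08) for Krt71. Tchh, trichohyalin, which hardens the sheath and the medulla, had 1.10 and 0.961 RPKM at P60, against 397, 469 and 378 RPKM at P1. The P60 libraries agreed closely and lay far below the P1 libraries, with a log2 change of -8.08 ± 0.12 (SE; adjusted p = 4.29e-08). Krt73, another sheath keratin, was listed at 0 in both P60 libraries, against 134, 187 and 162 RPKM at P1. Gata3, the transcription factor needed for sheath formation, was the single sheath gene called higher, at 46.5 and 55.9 RPKM at P60, against 33.0, 39.3 and 36.6 RPKM at P1. Its groups did not overlap, and the change was small, at 0.49 ± 0.12 (SE; adjusted p = 0.0082); epidermis expresses this gene as well.

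Hair shaft genes fell to a like degree. All 12 hair shaft keratins that passed were lower, with a median of -5.80, and so were all 46 hair keratin-associated proteins that passed, of 54 listed, with a median of -4.95. Of these 46, 45 reached 1 RPKM only at P1, as did 11 of the 12 shaft keratins. Krt35, an early keratin of the shaft cortex and cuticle, had 0.0872 and 0.107 RPKM at P60, against 85.8, 113 and 102 RPKM at P1. Krt85, which marks the start of shaft differentiation, had 0.0343 and 0.0693 RPKM at P60, against 60.3, 88.8 and 72.6 RPKM at P1. In each case both P60 libraries were close to nothing and all P1 libraries well expressed. The log2 change was -7.39 ± 0.13 (SE; adjusted p = 7.20e-08) for Krt35 and -7.06 ± 0.16 (SE; adjusted p = 1.45e-07) for Krt85. Krtap7-1, a matrix protein that cross-links shaft keratins, had 0.0484 and 0.0330 RPKM at P60, against 76.7, 106 and 74.5 RPKM at P1, a log2 change of -7.30. Krtap8-1, from the same class, was listed at 0 in both P60 libraries, against 99.9, 130.3 and 93.7 RPKM at P1. Many keratin-associated protein genes are near-identical copies, so reads may be shared among them. The least reduced shaft keratin among those described was Krt32, with 5.11 and 8.08 RPKM at P60, against 16.0, 21.0 and 16.2 RPKM at P1 and a log2 change of -1.38 ± 0.20 (SE; adjusted p = 0.000512). Krt32 still separated the ages without overlap, as did Krtap3-2, with 6.37 and 8.65 RPKM at P60, against 15.9, 20.7 and 18.0 RPKM at P1 (-1.23 on the log2 scale).

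The regulators that build the hair matrix fell less steeply. Among matrix and placode regulators 15 of the 19 that passed were lower and 1 was higher, with a median of -2.17. Lef1, the transcription factor that carries Wnt signals into the hair matrix, had 0.757 and 0.511 RPKM at P60, against 13.4, 15.7 and 14.3 RPKM at P1. Msx2, a homeobox factor of the matrix, had 2.15 and 2.04 RPKM at P60, against 18.0, 25.8 and 21.9 RPKM at P1. Hoxc13, which switches on shaft keratin genes, had 2.43 and 1.79 RPKM at P60, against 16.8, 22.6 and 19.3 RPKM at P1. All 3 genes were lower in each P60 library than in any P1 library, with log2 changes of -3.73 ± 0.13 (SE; adjusted p = 8.50e-07) for Lef1, -3.09 ± 0.15 (SE; adjusted p = 3.39e-06) for Msx2 and -2.94 ± 0.16 (SE; adjusted p = 5.30e-06) for Hoxc13. Dlx3, which acts upstream of Hoxc13 in the follicle, had 4.798 and 4.24 RPKM at P60, against 52.8, 67.1 and 57.3 RPKM at P1. At P60 it was about as expressed as Dlx5, at P1 it was the best expressed Dlx gene, and its log2 change was -3.56 ± 0.13 (SE; adjusted p = 8.66e-07). Dlx1 and Dlx2 were lower as well, with log2 changes of -2.42 for Dlx1 and -2.70 for Dlx2. Dlx5 had 4.33 and 4.82 RPKM at P60, against 3.14, 2.63 and 2.71 RPKM at P1. It was the single Dlx gene called higher, by 0.61 ± 0.12 (SE; adjusted p = 0.00218), and Dlx6 did not pass the filter.

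Most genes of the hedgehog pathway, by which follicle epithelium and dermis instruct each other to grow, were lower. Of 12 pathway genes that passed, 10 were lower and 0 higher, with a median of -2.17, beside 50.5% lower among all genes tested. Of these 12, 3 reached 1 RPKM only at P1, Shh among them, and Boc and Gas1 were not called. Signalling itself was not measured. Shh, the ligand, had 0.0169 and 0 RPKM at P60, against 13, 15 and 15.7 RPKM at P1. Ptch1, the receptor, had 2.03 and 2.14 RPKM at P60, against 27.1, 32.0 and 32.8 RPKM at P1. Gli1, the transcription factor and standard readout of pathway activity, had 2.77 and 2.72 RPKM at P60, against 48.0, 44.5 and 41.6 RPKM at P1. Ligand, receptor and target were thus a small remnant at P60, with no overlap with P1. The log2 change was -4.89 ± 0.12 (SE; adjusted p = 1.74e-07) for Shh, -3.58 ± 0.11 (SE; adjusted p = 5.31e-07) for Ptch1 and -3.80 ± 0.10 (SE; adjusted p = 2.22e-07) for Gli1. Smo, the transducer, changed by -0.97 only, with 16.2 and 15.3 RPKM at P60, against 33.2, 32.0 and 29.4 RPKM at P1.

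Pigment cell genes fell with the hair. All 12 melanocyte genes were lower, with a median of -3.16, and their summed level was 22.1 and 18.8 RPKM at P60, against 239, 370 and 313 RPKM at P1. Of these 12, 7 reached 1 RPKM only at P1, so the count and median describe the genes that passed. Dct, a melanin synthesis enzyme, had 2.30 and 1.52 RPKM at P60, against 88.2, 137 and 118 RPKM at P1. Pmel, the fibril protein of the pigment granule, had 1.68 and 1.60 RPKM at P60, against 60.6, 92.8 and 76.1 RPKM at P1. The P60 levels were a small remnant of the P1 levels in both cases, and KO P1 replicate 2 was the highest library. Log2 changes were -5.57 ± 0.21 (SE; adjusted p = 1.13e-06) for Dct and -5.15 ± 0.17 (SE; adjusted p = 6.61e-07) for Pmel. Mlana, a melanosome protein, kept more of its level, with 8.40 and 4.76 RPKM at P60, against 21.5, 33.9 and 24.2 RPKM at P1 and a change of -1.96. Mitf, the master regulator of the lineage, had 4.52 and 4.14 RPKM at P60, against 5.69, 7.58 and 8.12 RPKM at P1, and Sox10, which Schwann cells also express, had 3.62 and 5.50 RPKM at P60, against 8.72, 7.78 and 6.77 RPKM at P1. Their changes of -0.65 ± 0.15 (SE; adjusted p = 0.00635) for Mitf and -0.72 ± 0.18 (SE; adjusted p = 0.00737) for Sox10 lost the call with median-of-ratios factors, where the adjusted p was 0.0864 for Mitf and 0.0791 for Sox10.

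**Figure D2:**
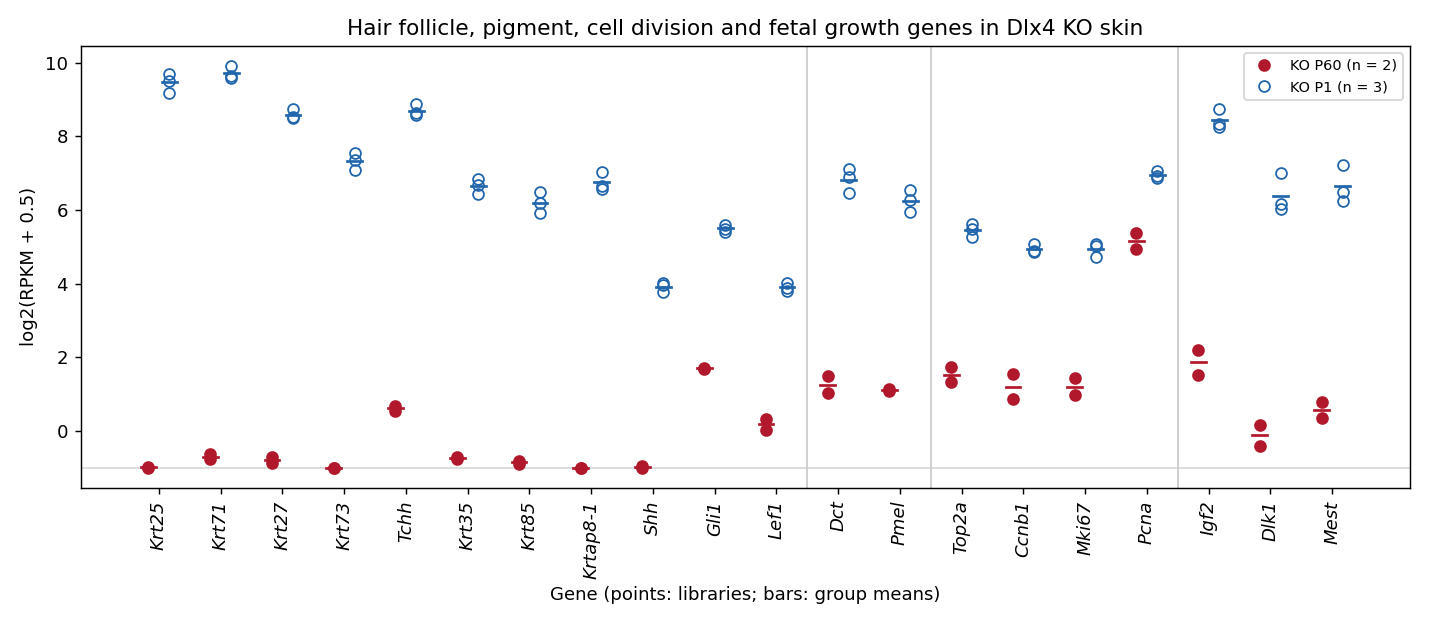
Expression of hair follicle, pigment cell, cell division and fetal growth genes (horizontal axis, 4 panels separated by grey lines) as log2(RPKM + 0.5) in each KO library. Filled circles are the 2 P60 libraries, open circles the 3 P1 libraries and bars the group means; the grey line at -1 is the value of a gene at 0 RPKM, and for each gene shown both P60 libraries lie below all P1 libraries.

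Stem cell genes of the follicle went both ways. Of 13 that passed, 8 were lower and 2 higher, with a median of -0.48, near that of all genes (-0.14 with median-of-ratios factors, with 5 lower). Lhx2, which holds follicle stem cells in place, had 10.5 and 8.62 RPKM at P60, against 34.1, 37.1 and 31.3 RPKM at P1. Lgr5, a receptor of cycling stem cells, had 3.65 and 2.77 RPKM at P60, against 9.04, 12.2 and 11.6 RPKM at P1. Krt15, a keratin of the resting bulge that is counted here with the basal layer, had 1337 and 1820.1 RPKM at P60, against 373, 392 and 377 RPKM at P1. Cd34, carried by bulge cells and by blood vessels and fibroblasts, had 148 and 102 RPKM at P60, against 60.1, 55.6 and 59.1 RPKM at P1. Fgf18, a growth factor of the resting follicle that holds back the next hair cycle, had 10.3 and 12.5 RPKM at P60, against 1.32, 1.64 and 1.23 RPKM at P1. The genes thus split, with Lhx2 and Lgr5 lower and Krt15, Cd34 and Fgf18 higher in each P60 library than in any P1 library. The log2 changes were -1.79 ± 0.12 (SE; adjusted p = 1.65e-05) for Lhx2, -1.62 ± 0.16 (SE; adjusted p = 8.58e-05) for Lgr5, 2.03 ± 0.16 (SE; adjusted p = 3.01e-05) for Krt15, 1.07 ± 0.16 (SE; adjusted p = 0.000593) for Cd34 and 2.65 ± 0.14 (SE; adjusted p = 4.62e-06) for Fgf18.

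Cell division genes were lower throughout. All 25 mitosis genes were lower, each by at least 1 on the log2 scale, with a median of -3.13, and all 24 DNA replication genes were lower by at least 1, with a median of -2.01. Top2a, the topoisomerase that untangles sister chromosomes, had 2.81 and 2.00 RPKM at P60, against 38.2, 44.0 and 48.4 RPKM at P1. Ccnb1, the cyclin that triggers mitosis, had 2.39 and 1.31 RPKM at P60, against 28.7, 29.1 and 33.4 RPKM at P1. Cdk1, its kinase partner, had 1.58 and 0.996 RPKM at P60, against 18.7, 18.4 and 21.8 RPKM at P1. Division genes therefore kept a low level at P60, with the P60 libraries well apart from the P1 libraries. The log2 change was -3.93 ± 0.15 (SE; adjusted p = 1.32e-06) for Top2a, -3.75 ± 0.19 (SE; adjusted p = 4.23e-06) for Ccnb1 and -3.51 ± 0.16 (SE; adjusted p = 2.42e-06) for Cdk1. Mki67, the proliferation marker, changed by -3.75 ± 0.17 (SE; adjusted p = 2.32e-06), and Bub1, a spindle checkpoint kinase, by -3.57. Pcna, the sliding clamp of DNA polymerase, had 40.7 and 30.2 RPKM at P60, against 116, 119.7 and 131 RPKM at P1. Its change of -1.79 ± 0.14 (SE; adjusted p = 3.31e-05) was smaller than that of the mitotic genes, and Mcm5, a subunit of the replicative helicase, stood between them with -2.68. For these 3 mitotic genes the 250 bases before the annotated start are printed here, because a CCAAT element was found in 18 of 22 such windows of mitosis genes. The windows come from RefSeq (GRCm38.p6), read 5′ to 3′ on the strand of the gene, and capitals mark CCAAT or its reverse complement ATTGG.
Ccnb1: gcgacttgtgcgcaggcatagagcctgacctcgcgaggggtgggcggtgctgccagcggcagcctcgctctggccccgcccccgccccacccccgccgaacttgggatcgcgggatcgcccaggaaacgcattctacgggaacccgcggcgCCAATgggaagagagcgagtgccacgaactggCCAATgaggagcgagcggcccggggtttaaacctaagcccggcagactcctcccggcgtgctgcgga
Cdk1: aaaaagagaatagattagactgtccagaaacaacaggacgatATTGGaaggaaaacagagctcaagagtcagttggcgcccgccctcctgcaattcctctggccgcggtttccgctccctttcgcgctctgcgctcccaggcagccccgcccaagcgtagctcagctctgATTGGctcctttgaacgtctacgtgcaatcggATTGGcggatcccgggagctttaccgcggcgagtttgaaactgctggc
Top2a: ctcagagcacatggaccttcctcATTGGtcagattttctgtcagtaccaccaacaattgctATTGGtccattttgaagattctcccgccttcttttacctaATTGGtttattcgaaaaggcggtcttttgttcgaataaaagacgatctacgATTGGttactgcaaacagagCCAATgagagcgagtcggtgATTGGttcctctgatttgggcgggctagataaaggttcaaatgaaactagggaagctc

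These windows lie at chr13:100786487-100786736 for Ccnb1, chr10:69352913-69353162 for Cdk1 and chr11:99024190-99024439 for Top2a, all on the minus strand. They hold 2, 3 and 6 such elements, in the order given. RefSeq windows were found for 21 of the 25 mitosis genes, and 18 of their 22 windows (81.8%) held CCAAT on either strand. The share was 13 of 23 (56.5%) for windows of DNA replication genes, 14 of 19 (73.7%) for windows of circadian clock genes and 33.8% for all 32851 windows of the table, so the element was not limited to division genes. TTTGAA, the core of the element known as the cell cycle homology region, stood on either strand in 8 of 22 mitosis windows (36.4%), in 3 of 23 replication windows (13%), in 0 of 19 clock windows and in 16.0% of all windows. The letters of the 2 motifs overlapped in 40 windows of the table and in none of those printed. A match shows only that the letters are present in the window.

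Genes that package and mark DNA followed the division genes in part. Of 68 replication-dependent histone genes 22 passed, of which 13 were lower and 2 higher, beside 50.5% lower among all genes tested. Of these 22, 11 reached 1 RPKM only at P1. The median of the list was -1.31. Over the members that pass in each setting it was -0.16 with a mean of at least 5 RPKM and -0.11 with KO P1 replicate 2 as the only P1 library. Hist1h2ao had 2.66e-11 and 5.73e-06 RPKM at P60, against 159.8, 133 and 153 RPKM at P1, and Hist1h4h had 9.10 and 12.6 RPKM at P60, against 2.096, 0.664 and 0.864 RPKM at P1. Histone genes are near-identical copies, and their values at P60 are uncertain for that reason. Uhrf1, which brings the maintenance methyltransferase to newly copied DNA, had 3.68 and 3.42 RPKM at P60, against 30.8, 31.9 and 31.4 RPKM at P1. Dnmt1, that methyltransferase, had 7.56 and 6.82 RPKM at P60, against 27.1, 26.9 and 26.0 RPKM at P1. Ezh2, the Polycomb methyltransferase of dividing cells, had 5.63 and 4.59 RPKM at P60, against 21.5, 25.4 and 27.5 RPKM at P1. The P60 libraries were lower in all 3 cases, with changes of -2.98 ± 0.09 (SE; adjusted p = 4.44e-07) for Uhrf1, -1.82 ± 0.09 (SE; adjusted p = 4.26e-06) for Dnmt1 and -2.17 ± 0.14 (SE; adjusted p = 1.14e-05) for Ezh2. A pair of Polycomb genes went the other way. Ezh1, the alternative to Ezh2, had 12.5 and 13.8 RPKM at P60, against 7.77, 9.19 and 7.50 RPKM at P1, and Cbx7, a reader of the Polycomb mark, had 17.1 and 18.4 RPKM at P60, against 4.35, 4.50 and 4.17 RPKM at P1. Neither gene overlapped between the ages, and the changes were 0.66 ± 0.12 (SE; adjusted p = 0.0015) for Ezh1 and 1.92 ± 0.10 (SE; adjusted p = 3.84e-06) for Cbx7. Together 10 of the 12 DNA methylation and Polycomb genes that passed were lower and 2 higher, with a median of -1.05.

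Genes of the fetal growth programme were lower as a group. All 15 imprinted growth genes, which are expressed from a single parental copy and wane after birth, were lower, 14 of them by at least 1 on the log2 scale, with a median of -2.47. Igf2, the fetal growth factor, had 2.39 and 4.10 RPKM at P60, against 427, 305 and 321 RPKM at P1. Dlk1, a membrane protein of immature mesenchyme, had 0.259 and 0.613 RPKM at P60, against 126, 70.4 and 64.6 RPKM at P1. Mest, a gene of growing mesoderm, had 0.773 and 1.22 RPKM at P60, against 148, 89.5 and 74.9 RPKM at P1. Each of the 3 was at a few RPKM or less at P60 and far higher at P1, where KO P1 replicate 1 was the highest library. On the log2 scale they changed by -6.57 ± 0.22 (SE; adjusted p = 7.12e-07) for Igf2, -6.51 ± 0.30 (SE; adjusted p = 2.54e-06) for Dlk1 and -6.08 ± 0.28 (SE; adjusted p = 2.54e-06) for Mest. H19, the long noncoding RNA beside Igf2, had 342 and 599 RPKM at P60, against 3238, 2159 and 2252 RPKM at P1, so it remained well expressed at P60 despite a change of -2.47 ± 0.28 (SE; adjusted p = 0.000158). Ndn was the least changed of the list, at -0.66 ± 0.17 (SE; adjusted p = 0.00906), a call that was lost with median-of-ratios factors (adjusted p = 0.137). Igf2bp3, a fetal mRNA-binding protein, had 0.380 and 0.316 RPKM at P60, against 11.9, 13.7 and 14.0 RPKM at P1. It separated the ages widely, with a change of -4.01 ± 0.11 (SE; adjusted p = 3.54e-07), while Hmga1, a chromatin protein of growing cells, changed by -1.22 only. Of 9 fetal RNA-binding and Hmga genes 6 passed and 5 were lower, and 5 of the 6 reached 1 RPKM only at P1.

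The epidermis changed unevenly from layer to layer. Basal layer genes were split, with 5 of 13 higher and 5 lower, and a median of -0.13 (0.21 with median-of-ratios factors). Krt5, the basal keratin, had 1444 and 1522 RPKM at P60, against 1405, 1376 and 1396 RPKM at P1. Krt14, its partner, had 826 and 755 RPKM at P60, against 886, 846 and 868 RPKM at P1. These keratins, among the best expressed genes of skin, were at like levels at both ages. Neither change passed the test, at 0.09 ± 0.13 (SE; adjusted p = 0.562) for Krt5 and -0.13 ± 0.13 (SE; adjusted p = 0.369) for Krt14. The result depended on scaling, since Krt5 was called higher with median-of-ratios factors (0.44) and lower after quantile normalization (-0.64), and Krt14 was called lower after quantile normalization (-0.41). Col17a1, a collagen of the junction that anchors basal cells, had 197 and 228 RPKM at P60, against 71.9, 77.9 and 72.2 RPKM at P1. Cdh3, P-cadherin, an adhesion protein of basal and hair matrix cells, had 7.66 and 7.25 RPKM at P60, against 32.1, 38.7 and 34.5 RPKM at P1. Col17a1 was higher and Cdh3 lower in every P60 library, with changes of 1.51 ± 0.11 (SE; adjusted p = 2.17e-05) for Col17a1 and -2.16 ± 0.11 (SE; adjusted p = 3.99e-06) for Cdh3.

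Above the basal layer 12 of the 18 genes that passed were lower and 4 higher, with a median of -0.98. Among all genes tested 50.5% were lower and 22.8% higher. With median-of-ratios factors 9 of the 18 were lower and 5 higher, at a median of -0.63. Krt1, the main keratin of differentiating cells, had 557 and 427 RPKM at P60, against 4953, 4102 and 4743 RPKM at P1. Krt10, its partner, had 2468 and 2165 RPKM at P60, against 6072, 5016 and 5804 RPKM at P1. Krt77, a type II keratin of suprabasal epidermis, had 1083 and 996 RPKM at P60, against 20.4, 26.0 and 21.7 RPKM at P1. The pair of Krt1 and Krt10 was lower in P60 skin, Krt1 by more than its partner, whereas Krt77 was many times higher in it. Log2 changes were -3.23 ± 0.18 (SE; adjusted p = 6.31e-06) for Krt1, -1.28 ± 0.18 (SE; adjusted p = 0.000451) for Krt10 and 5.49 ± 0.13 (SE; adjusted p = 1.51e-07) for Krt77. Casp14, a protease of cornifying cells, had 16.7 and 16.5 RPKM at P60, against 109, 106 and 109 RPKM at P1, and Hrnr, a filaggrin relative, had 7.995 and 4.91 RPKM at P60, against 73.8, 87.2 and 100.2 RPKM at P1. Both were lower at P60 with no overlap, and changed by -2.66 for Casp14 and -3.68 for Hrnr. Lor, loricrin, the bulk protein of the cornified envelope, had 492 and 839 RPKM at P60, against 1912, 1231 and 1054 RPKM at P1. The groups did not overlap, yet the change of -1.07 ± 0.31 (SE; adjusted p = 0.0146) missed the threshold with median-of-ratios factors (adjusted p = 0.0707), without a filter (0.0579), with all 10 libraries in the fit (0.0551) and without KO P60 replicate 1 (0.0729). The cysteine protease inhibitor Stfa3 had 2.33 and 1.84 RPKM at P60, against 1241, 1185 and 1501 RPKM at P1, and its copies Stfa1 and Stfa2 changed by -7.84 and -7.17 on the log2 scale. These stefin A genes are near-identical, so their reads may be shared.

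Cornified envelope genes of the Lce and Sprr clusters were mostly lower, with 18 of the 23 that passed lower and 1 higher, and a median of -1.64. The exception was Lce1m, with 757 and 1066 RPKM at P60, against 498, 381 and 356 RPKM at P1 and a change of 1.14 ± 0.20 (SE; adjusted p = 0.00159). Lce1g went the other way, with 3.54 and 2.01 RPKM at P60, against 71.3, 64.7 and 59.4 RPKM at P1. The clusters hold close copies, so single values are uncertain. Barrier lipid genes moved little as a group, with 12 of 19 lower, 4 higher and a median of -0.44, near that of all genes; with median-of-ratios factors 5 were lower and 4 higher. Alox12e, an epidermal lipoxygenase, had 93.1 and 78.9 RPKM at P60, against 12.7, 14.3 and 12.1 RPKM at P1. Pnpla1, which makes the acylceramides of the barrier, had 3.85 and 3.83 RPKM at P60, against 10.4, 11.1 and 10.6 RPKM at P1. Alox12e was higher and Pnpla1 lower in every P60 library, with changes of 2.68 ± 0.12 (SE; adjusted p = 2.24e-06) for Alox12e and -1.37 ± 0.09 (SE; adjusted p = 1.57e-05) for Pnpla1. Cholesterol synthesis genes leaned lower, with 17 of 23 lower and 1 higher, and a median of -0.78 (12 lower and 3 higher, at -0.45, with median-of-ratios factors). Dhcr7, an enzyme that ends the pathway, was the single gene higher, with 31.5 and 31.9 RPKM at P60, against 22.6, 22.8 and 20.7 RPKM at P1. Sebaceous gland genes were mixed, with 6 of 17 lower and 3 higher. Scd1, the desaturase of sebocytes and adipocytes, had 233 and 205 RPKM at P60, against 72.7, 94.3 and 87.1 RPKM at P1, and Elovl3, a fatty acid elongase of the gland, had 5.20 and 2.86 RPKM at P60, against 20.0, 25.4 and 24.8 RPKM at P1. Scd1 was higher and Elovl3 lower in every P60 library, with log2 changes of 1.37 for Scd1 and -2.44 for Elovl3.

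The dermal matrix separated into parts. Among 17 dermal collagens 11 were lower and 2 higher, with a median of -1.01, and the 2 chains of type I collagen were higher. Col1a1, a chain of type I collagen, had 8792 and 3657 RPKM in KO P60 skin, against 1188, 984 and 817 RPKM in KO P1 skin. Col1a2, the other chain, had 8262 and 3198 RPKM at P60, against 1042, 1005 and 875 RPKM at P1. Col3a1, the partner collagen of growing dermis, had 4702 and 1998 RPKM at P60, against 1929.9, 1862 and 1623 RPKM at P1. KO P60 replicate 1 lay far above KO P60 replicate 2 for each of these genes, and both lay above all P1 libraries. The change was 2.52 ± 0.36 (SE; adjusted p = 0.000474) for Col1a1 and 2.40 ± 0.36 (SE; adjusted p = 0.000644) for Col1a2, and Col3a1 did not pass, at 0.77 ± 0.33 (SE; adjusted p = 0.0702). Without KO P60 replicate 1 the changes were 1.89 for Col1a1, 1.72 for Col1a2 and 0.15 for Col3a1, and without KO P60 replicate 2 they were 3.16 for Col1a1, 3.09 for Col1a2 and 1.38 for Col3a1, which then passed. Col3a1 also passed with median-of-ratios factors (1.12) and turned to -0.19 after quantile normalization. Sparc, a collagen-binding matricellular protein, had 5562 and 2803 RPKM at P60, against 866, 838 and 807 RPKM at P1, and Dcn, decorin, which spaces collagen fibrils, had 1114 and 601 RPKM at P60, against 238, 246 and 237 RPKM at P1. These were higher at P60 too, by 2.24 ± 0.27 (SE; adjusted p = 0.000228) for Sparc and 1.77 ± 0.24 (SE; adjusted p = 0.000377) for Dcn, again with replicate 1 the higher P60 library.

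Some matrix genes were lower, of which 6, taken from several lists, serve as examples. Col12a1, a collagen that coats fibrils in tissue under tension, had 1.25 and 1.03 RPKM at P60, against 24.0, 24.0 and 23.5 RPKM at P1. Tnc, tenascin C, had 1.40 and 1.11 RPKM at P60, against 28.0, 26.3 and 28.3 RPKM at P1. Vcan, versican, a hydrated proteoglycan of fetal dermis and dermal papilla, had 1.18 and 0.707 RPKM at P60, against 14.5, 16.2 and 17.1 RPKM at P1. Fbn2, the fetal fibrillin, had 0.351 and 0.211 RPKM at P60, against 14.7, 13.5 and 13.4 RPKM at P1. All 4 genes were at or below 2 RPKM in each P60 library and above 10 RPKM in each P1 library. The log2 changes were -3.89 ± 0.10 (SE; adjusted p = 2.16e-07) for Col12a1, -4.003 ± 0.11 (SE; adjusted p = 2.86e-07) for Tnc, -3.53 ± 0.16 (SE; adjusted p = 2.26e-06) for Vcan and -4.20 ± 0.12 (SE; adjusted p = 3.48e-07) for Fbn2. Eln, elastin, laid down around birth, had 70.0 and 37.9 RPKM at P60, against 305, 212 and 174 RPKM at P1, and Postn, periostin, had 102 and 71.2 RPKM at P60, against 492, 525 and 523 RPKM at P1. They were lower in both P60 libraries, with changes of -2.11 ± 0.30 (SE; adjusted p = 0.000494) for Eln and -2.58 ± 0.16 (SE; adjusted p = 1.06e-05) for Postn. Elastic fibre genes counted 8 of 15 lower and 1 higher, and proteoglycan and matricellular genes 8 of 16 lower and 6 higher, with medians of -0.51 and -0.10 (-0.17 and 0.25 with median-of-ratios factors). Both shares of lower genes were near the 50.5% of all genes tested, and without KO P60 replicate 1 the medians were -0.97 for elastic fibre genes and -0.40 for proteoglycan and matricellular genes.

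Genes of the dermal papilla and of the fibroblast lineages were lower in 12 of 18 and higher in 3, with a median of -1.39. Among all genes tested 50.5% were lower. Of these 18, 4 reached 1 RPKM only at P1, Corin among them. Corin, a protease of the papilla, had 0.104 and 0.0407 RPKM at P60, against 3.75, 5.26 and 4.99 RPKM at P1, and Wif1, a Wnt inhibitor, had 2.04 and 1.47 RPKM at P60, against 20.6, 20.9 and 21.6 RPKM at P1. They were lower without overlap, with changes of -3.16 ± 0.16 (SE; adjusted p = 4.19e-06) for Corin and -3.27 ± 0.13 (SE; adjusted p = 1.22e-06) for Wif1. Among 20 white adipocyte genes 6 were higher and 5 lower, with a median of 0.08. The balance depended on scaling, since 10 were higher and 3 lower with median-of-ratios factors, at a median of 0.43. Adipoq, the adipocyte hormone adiponectin, had 74.7 and 88.1 RPKM at P60, against 148, 109 and 89.1 RPKM at P1. Cfd, the adipocyte protease adipsin, had 820.2 and 923 RPKM at P60, against 227, 232 and 141 RPKM at P1. The Adipoq groups lay close to each other, whereas Cfd was several times higher in both P60 libraries. The change was -0.47 ± 0.21 (SE; adjusted p = 0.0699) for Adipoq, which did not pass, and 2.15 ± 0.22 (SE; adjusted p = 0.000107) for Cfd. Adipoq was called lower without KO P1 replicate 3 (adjusted p = 0.0183). Pnpla2, the lipase that starts fat breakdown, was higher, at 1.22, and Acsl1, which activates fatty acids, was lower, at -1.05 on the log2 scale.

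Muscle genes showed an exchange of isoforms. All 25 adult fast muscle genes were higher, each by at least 1 on the log2 scale, with a median of 2.72, and together they made up 7.07% and 11.5% of the summed RPKM at P60, against 2.46%, 1.55% and 1.68% at P1. Of 14 fetal isoform and myogenic factor genes that passed, 10 were lower and 1 higher, with a median of -2.20. Of 8 slow muscle genes 5 passed, without Myh7, Myl2 and Myl3, and 2 of the 5 reached 1 RPKM only at P1. All 5 were lower, and 4 with median-of-ratios factors. Myoz2, at -0.40, was near the median of all genes, -0.32. Skin samples include the panniculus carnosus, a fast-twitch muscle sheet, and the amount of muscle in each sample was not measured.

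Among myosin heavy chains the exchange was nearly complete. Myh8, the perinatal chain, had 1.36 and 1.86 RPKM at P60, against 778, 534 and 595 RPKM at P1. Myh3, the embryonic chain, had 0.0292 and 0.0505 RPKM at P60, against 19.6, 15 and 14.3 RPKM at P1. Myh4, the chain of the fastest adult fibres, had 731 and 1681 RPKM at P60, against 4.53, 1.79 and 1.78 RPKM at P1. Perinatal and embryonic myosin were a trace at P60 and abundant at P1, and Myh4 the reverse, with KO P60 replicate 2 the highest. The changes were -8.23 ± 0.18 (SE; adjusted p = 1.29e-07) for Myh8, -4.95 ± 0.15 (SE; adjusted p = 4.37e-07) for Myh3 and 8.54 ± 0.43 (SE; adjusted p = 4.07e-06) for Myh4. Myh1, the chain of intermediate fast fibres, had 889.7 and 648 RPKM at P60, against 23.7, 19 and 18.2 RPKM at P1, and Myh2, of oxidative fast fibres, had 43.8 and 96.1 RPKM at P60, against 7.22, 0.757 and 0.663 RPKM at P1. Both were higher at P60, by 5.20 ± 0.17 (SE; adjusted p = 6.49e-07) for Myh1 and 4.87 ± 0.79 (SE; adjusted p = 0.00095) for Myh2, and KO P1 replicate 1 had several times the Myh2 of the other P1 libraries. Without it the Myh2 change was 5.76. The heavy chain genes lie in a cluster and are similar in sequence, so reads may be shared among them.

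Other pairs of fetal and adult forms moved in the same opposed way. Actc1, cardiac actin, used by fetal skeletal muscle, had 1.62 and 12.3 RPKM at P60, against 94.1, 49.98 and 59.4 RPKM at P1. Acta1, adult skeletal actin, had 6717 and 11213 RPKM at P60, against 3128, 1809.6 and 1839 RPKM at P1. Actc1 was lower and Acta1 higher in each P60 library, with changes of -3.66 ± 0.66 (SE; adjusted p = 0.00166) for Actc1 and 1.99 ± 0.32 (SE; adjusted p = 0.0009) for Acta1. Without KO P60 replicate 1 the Actc1 change was -2.37, and without KO P60 replicate 2 it was -4.96. Of the acetylcholine receptor subunits at the nerve-muscle contact, the fetal Chrng had 0.0156 and 0.0107 RPKM at P60, against 2.97, 1.48 and 2.46 RPKM at P1. The adult subunit Chrne had 1.96 and 3.27 RPKM at P60, against 0.423, 0.304 and 0.424 RPKM at P1. The swap left no overlap for either gene, with changes of -2.41 ± 0.23 (SE; adjusted p = 7.59e-05) for Chrng and 1.79 ± 0.20 (SE; adjusted p = 0.000139) for Chrne. Tnnt2, cardiac troponin T, was lower, at -0.97, and Tnnt3, fast troponin T, higher, at 2.22. Pvalb, the calcium buffer of fast fibres, had 775 and 1734 RPKM at P60, against 9.19, 4.95 and 3.35 RPKM at P1, and Tcap, a titin-capping protein, had 707 and 1234 RPKM at P60, against 31.5, 16.2 and 19.4 RPKM at P1. Their changes were among the widest of the muscle genes, at 7.62 ± 0.43 (SE; adjusted p = 6.85e-06) for Pvalb and 5.41 ± 0.31 (SE; adjusted p = 7.52e-06) for Tcap.

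Factors that form new muscle were lower in part. Myog, which drives fibre differentiation, had 1.13 and 2.84 RPKM at P60, against 12.3, 8.55 and 8.998 RPKM at P1. Tmem8c, the fusion protein myomaker, had 0.121 and 0.124 RPKM at P60, against 6.51, 3.68 and 6.53 RPKM at P1. Myod1, which sets the lineage, had 2.75 and 3.40 RPKM at P60, against 4.20, 2.77 and 2.67 RPKM at P1. Myog and Tmem8c were lower at P60, with changes of -2.15 ± 0.29 (SE; adjusted p = 0.000403) for Myog and -3.25 ± 0.23 (SE; adjusted p = 1.99e-05) for Tmem8c. Myod1 overlapped between the ages and did not pass, at -0.04 ± 0.19 (SE; adjusted p = 0.871). Myf6, another myogenic factor, went the other way, with a mean of 14.0 RPKM at P60 against 8.78 RPKM at P1. Its change was 0.60 ± 0.21 (SE; limma adjusted p = 0.033), the single higher call of that list. Tnni1, slow troponin I, had 0.243 and 0.441 RPKM at P60, against 10.9, 4.26 and 6.25 RPKM at P1, and Casq2, the slow and cardiac calsequestrin, had 2.94 and 4.57 RPKM at P60, against 37.6, 27.3 and 34.8 RPKM at P1. These slow genes were lower, with changes of -3.10 ± 0.33 (SE; adjusted p = 0.000119) for Tnni1 and -3.001 ± 0.20 (SE; adjusted p = 1.30e-05) for Casq2. Myoglobin, Mb, an oxygen store that slow fibres are known to hold in excess, went against them with 295 and 267 RPKM at P60, against 9.63, 3.16 and 4.49 RPKM at P1 and a change of 5.63 ± 0.37 (SE; adjusted p = 1.38e-05).

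**Figure D3:**
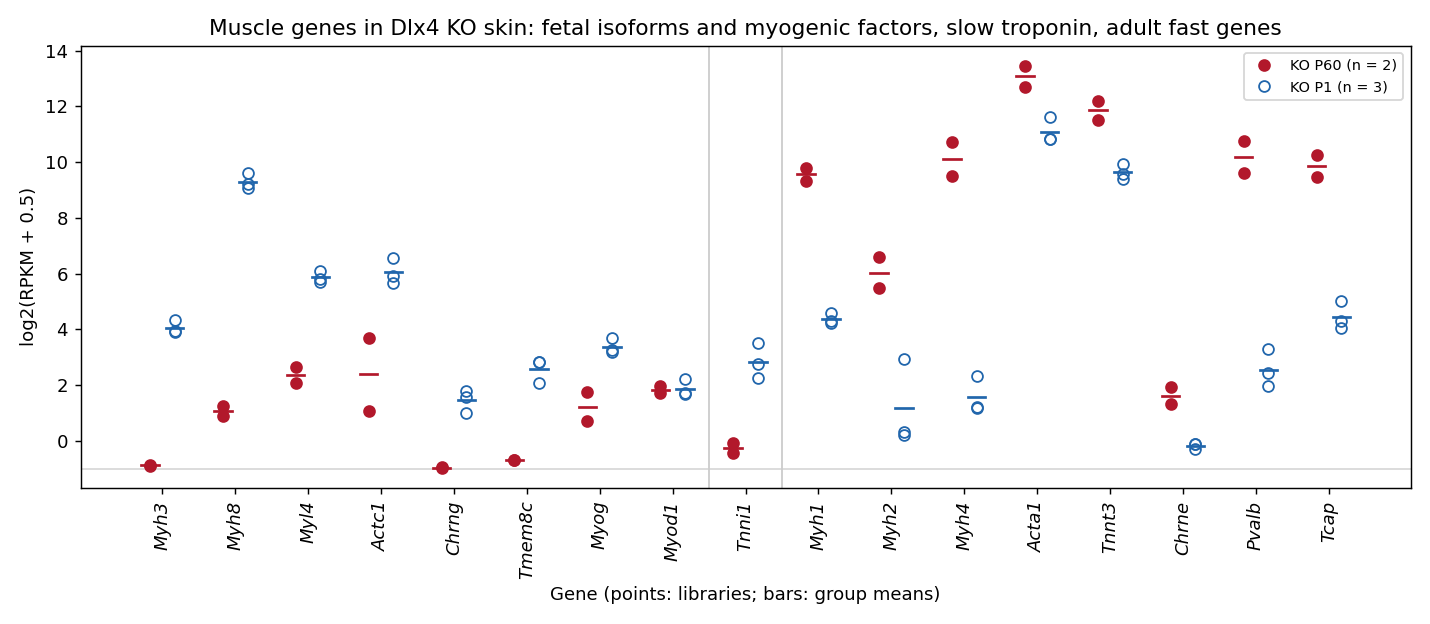
Muscle genes as log2(RPKM + 0.5) in each KO library, with fetal isoforms and myogenic factors left, the slow troponin Tnni1 in the middle and adult fast genes right. Filled circles are the 2 P60 libraries, open circles the 3 P1 libraries and bars the group means; fetal isoforms lie lower and fast genes higher at P60, and Myod1 overlaps between the ages.

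Immune gene lists differed in direction. Among the genes that passed the filter, antigen presentation, macrophage and T cell genes were mostly higher at P60 and mast cell genes lower. All 11 genes of MHC class I and the immunoproteasome were higher by at least 1 on the log2 scale, with a median of 2.57. Of these 11, 2 reached 1 RPKM only at P60. Among Langerhans cell, dendritic cell and MHC class II genes 11 passed, 4 of which reached 1 RPKM only at P60. Of the 11 that passed, 10 were higher and 1 lower, with a median of 3.53. That median, taken over the members that pass in each setting, was 4.92 without KO P60 replicate 1, 5.40 without KO P60 replicate 2 and 4.87 with a pseudocount of 0.1. H2-Aa, an MHC class II chain, had 413 and 285 RPKM at P60, against 9.28, 8.11 and 9.46 RPKM at P1. Cd74, the chaperone of class II, had 986 and 669.7 RPKM at P60, against 19.9, 14.4 and 17.1 RPKM at P1. Ciita, the transcription factor that switches class II genes on, had 2.22 and 1.51 RPKM at P60, against 0.165, 0.113 and 0.118 RPKM at P1. The P60 levels were many times those of P1 for H2-Aa and Cd74, with no overlap for any of the 3. On the log2 scale the differences were 5.19 ± 0.16 (SE; adjusted p = 5.31e-07) for H2-Aa, 5.54 ± 0.19 (SE; adjusted p = 8.40e-07) for Cd74 and 1.89 ± 0.17 (SE; adjusted p = 5.13e-05) for Ciita. Cd207, langerin, which defines mature Langerhans cells, had 8.30 and 5.80 RPKM at P60, against 0.220, 0.138 and 0.0839 RPKM at P1. It was clearly present at P60 and next to absent at P1, a change of 3.53 ± 0.18 (SE; adjusted p = 3.99e-06).

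Class I showed the same direction. H2-K1, a classical class I chain, had 559 and 640.4 RPKM at P60, against 50.7, 45.4 and 31.0 RPKM at P1. B2m, the light chain, had 986 and 883 RPKM at P60, against 182, 171 and 152 RPKM at P1. Psmb9, an immunoproteasome subunit, had 21.1 and 22.1 RPKM at P60, against 1.98, 1.87 and 1.59 RPKM at P1. Nlrc5, the class I transactivator, had 6.37 and 7.29 RPKM at P60, against 0.840, 0.683 and 0.679 RPKM at P1. Every P60 library stood above every P1 library, and the light chain was already high at P1. The changes were 3.84 ± 0.20 (SE; adjusted p = 5.12e-06) for H2-K1, 2.47 ± 0.13 (SE; adjusted p = 4.55e-06) for B2m, 3.26 ± 0.11 (SE; adjusted p = 7.67e-07) for Psmb9 and 2.57 ± 0.12 (SE; adjusted p = 3.41e-06) for Nlrc5. H2-Q7, a nonclassical class I gene with near-identical copies, had 48.6 and 71.6 RPKM at P60, against 0.561, 0.868 and 0.402 RPKM at P1. The interferon response genes moved less, with 11 of 19 higher and 1 lower and a median of 0.67. Usp18 had 9.41 and 5.70 RPKM at P60, against 1.05, 1.02 and 0.670 RPKM at P1, and Isg15 had 4.07 and 4.98 RPKM at P60, against 4.84, 5.07 and 3.72 RPKM at P1. Usp18 was higher by 2.48 ± 0.22 (SE; adjusted p = 5.18e-05), whereas Isg15, the modifier that Usp18 removes, overlapped between the ages at -0.0011 on the log2 scale (SE 0.15; adjusted p = 0.995).

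Cell types differed in direction. Of 16 macrophage genes 13 were higher and 0 lower, with a median of 1.28. Lyz2, lysozyme of myeloid cells, had 336 and 296 RPKM at P60, against 44.0, 39.8 and 26.6 RPKM at P1. C1qa, a complement subunit made by macrophages, had 107 and 115 RPKM at P60, against 32.6, 25.2 and 19.8 RPKM at P1. Mrc1, the mannose receptor of dermal macrophages, had 21.1 and 15.1 RPKM at P60, against 19.5, 16.1 and 14.3 RPKM at P1. Lyz2 and C1qa were higher in both P60 libraries and Mrc1 overlapped. The changes were 3.11 ± 0.21 (SE; adjusted p = 1.42e-05) for Lyz2, 2.11 ± 0.19 (SE; adjusted p = 5.73e-05) for C1qa and 0.11 ± 0.18 (SE; adjusted p = 0.589) for Mrc1. Of 16 T cell genes 10 passed, and 5 of these 10 reached 1 RPKM only at P60. Among the 10 that passed, 8 were higher and 0 lower, with a median of 1.18. Over the members with a mean of at least 5 RPKM the median was 0.47. Cd3e, a chain of the T cell receptor complex, had 6.97 and 6.65 RPKM at P60, against 0.5001, 0.631 and 0.223 RPKM at P1. Lck, the kinase beside the receptor, had 1.40 and 0.954 RPKM at P60, against 1.45, 1.35 and 1.33 RPKM at P1. Cd3e rose without overlap, by 2.97 ± 0.19 (SE; adjusted p = 1.31e-05), and Lck did not pass, at -0.17 ± 0.15 (SE; adjusted p = 0.325). None of 7 B cell genes passed the filter.

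Mast cells went the other way, with all 8 genes that passed lower and a median of -2.32. Cma1, a chymase of connective tissue mast cells, had 24.5 and 16.4 RPKM at P60, against 173, 143 and 139 RPKM at P1. Cpa3, their carboxypeptidase, had 19.9 and 10.1 RPKM at P60, against 127, 92.3 and 96.8 RPKM at P1. Mcpt4, a second chymase, had 61.6 and 31.1 RPKM at P60, against 138, 94.1 and 86.4 RPKM at P1. All 3 proteases were lower at P60 without overlap, Mcpt4 the least. The log2 changes were -2.88 ± 0.18 (SE; adjusted p = 1.13e-05) for Cma1, -2.83 ± 0.27 (SE; adjusted p = 7.07e-05) for Cpa3 and -1.24 ± 0.30 (SE; adjusted p = 0.00707) for Mcpt4. Of 12 neutrophil and antimicrobial genes 5 passed, 3 lower and 1 higher, and S100a8 had 1.34 and 0.314 RPKM at P60, against 7.33, 4.01 and 4.75 RPKM at P1.

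Several secreted immune proteins were among the widest rises of all. Retnla, a resistin-like protein of macrophages and fat activated by type 2 cytokines, had 296 and 596 RPKM at P60, against 0.0375, 0.252 and 0.0537 RPKM at P1. Ccl8, a chemokine of dermal macrophages, had 188 and 102 RPKM at P60, against 1.10, 0.591 and 0.816 RPKM at P1. C7, a component of the complement attack complex, had 72.0 and 34.9 RPKM at P60, against 0.00828, 0 and 0.0118 RPKM at P1. The P60 libraries were well expressed and the P1 libraries at or near nothing, apart from a low level of Ccl8. The changes were 9.44 ± 0.29 (SE; adjusted p = 4.46e-07) for Retnla, 6.72 ± 0.26 (SE; adjusted p = 1.36e-06) for Ccl8 and 6.64 ± 0.27 (SE; adjusted p = 1.53e-06) for C7. Cd209d, a lectin receptor of the DC-SIGN family, had 39.5 and 26.7 RPKM at P60, against 0.0780, 0.140 and 0.260 RPKM at P1. Fcgbp, an IgG Fc-binding mucin-like protein, had 66.0 and 68.0 RPKM at P60, against 0.318, 0.289 and 0.261 RPKM at P1. Both were a fraction of 1 RPKM at P1, and they changed by 5.65 ± 0.19 (SE; adjusted p = 7.43e-07) for Cd209d and 6.42 ± 0.10 (SE; adjusted p = 4.29e-08) for Fcgbp.

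Blood, vessel and nerve genes stood as follows. Of 9 erythroid genes that passed 6 were lower and 1 higher, with a median of -1.66. Hba-a1, alpha globin, had 57.1 and 85.5 RPKM at P60, against 395, 106 and 407 RPKM at P1. Alas2, the first enzyme of heme synthesis in red cells, had 1.68 and 1.89 RPKM at P60, against 12.2, 3.81 and 13.4 RPKM at P1. KO P1 replicate 2 was far below the remaining P1 libraries for both genes and closest to the P60 libraries. The changes were -1.87 ± 0.56 (SE; adjusted p = 0.0169) for Hba-a1, whose copies share reads, and -1.998 ± 0.46 (SE; adjusted p = 0.00535) for Alas2. The Hba-a1 call was lost without KO P1 replicate 1 or without KO P60 replicate 1, with adjusted p of 0.0651 and 0.0689. Of 11 endothelial genes 3 were lower and 1 higher, with a median of -0.01 (0.30 with median-of-ratios factors, with 5 higher and 1 lower). Kdr, the receptor for vessel growth factor, was the most reduced of those described, with 3.19 and 2.56 RPKM at P60, against 8.54, 6.84 and 6.43 RPKM at P1 and a change of -1.20 ± 0.15 (SE; adjusted p = 0.000246). Schwann cell and myelin genes were higher in 7 of 11 and lower in 1, with a median of 1.29. Mbp, myelin basic protein, had 18.7 and 42.6 RPKM at P60, against 6.18, 5.14 and 5.72 RPKM at P1. Both P60 libraries lay above all P1 libraries for Mbp, with KO P60 replicate 2 far above replicate 1, and the change was 2.22 ± 0.30 (SE; adjusted p = 0.000359). Without KO P60 replicate 2 the median of the list was 0.66. Of the 9 cartilage and bone genes 1 passed, at no more than 1.39 RPKM in any KO library.

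Circadian clock genes went in both directions. Of 17 that passed 13 were higher and 4 lower, with a median of 1.60. Dbp, a direct target of the clock activators, had 106 and 119.5 RPKM at P60, against 2.45, 2.63 and 2.504 RPKM at P1. Nr1d1, which represses Arntl, had 87.5 and 92.3 RPKM at P60, against 5.83, 5.89 and 4.16 RPKM at P1. Arntl, the activator, had 3.44 and 2.99 RPKM at P60, against 8.003, 8.11 and 8.17 RPKM at P1. Cry1, a late repressor, had 3.26 and 2.94 RPKM at P60, against 11.3, 11.1 and 11.7 RPKM at P1. Dbp and Nr1d1 were many times higher and Arntl and Cry1 lower in both P60 libraries, with close agreement inside each age. Changes were 5.22 ± 0.10 (SE; adjusted p = 9.61e-08) for Dbp, 3.98 ± 0.15 (SE; adjusted p = 1.21e-06) for Nr1d1, -1.21 ± 0.10 (SE; adjusted p = 3.95e-05) for Arntl and -1.72 ± 0.10 (SE; adjusted p = 6.78e-06) for Cry1. Tef, a relative of Dbp, had 54.0 and 61.3 RPKM at P60, against 13.2, 13.6 and 12.8 RPKM at P1, Per1, an early repressor, had 34.3 and 49.9 RPKM at P60, against 14.0, 8.86 and 8.57 RPKM at P1, and Ciart, a repressor of the activators, had 13.9 and 11.4 RPKM at P60, against 1.93, 2.42 and 2.19 RPKM at P1. These 3 were higher too, by 2.08 ± 0.10 (SE; adjusted p = 3.07e-06) for Tef, 1.97 ± 0.24 (SE; adjusted p = 0.000219) for Per1 and 2.29 ± 0.13 (SE; adjusted p = 7.20e-06) for Ciart, and Nfil3, which opposes Dbp, was lower, at -1.26. The labels do not state the hour at which skin was taken, so age and the hour of sampling cannot be told apart. The clock activators bind the E-box CACGTG, and 3 windows that hold it are shown, again 250 bases before the RefSeq start on the strand of the gene, with E-boxes in capitals.
Per1: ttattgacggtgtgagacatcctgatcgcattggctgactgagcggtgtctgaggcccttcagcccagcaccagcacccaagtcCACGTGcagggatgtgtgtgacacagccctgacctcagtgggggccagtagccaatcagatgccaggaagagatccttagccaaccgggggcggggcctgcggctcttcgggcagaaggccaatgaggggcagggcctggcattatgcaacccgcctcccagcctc
Tef: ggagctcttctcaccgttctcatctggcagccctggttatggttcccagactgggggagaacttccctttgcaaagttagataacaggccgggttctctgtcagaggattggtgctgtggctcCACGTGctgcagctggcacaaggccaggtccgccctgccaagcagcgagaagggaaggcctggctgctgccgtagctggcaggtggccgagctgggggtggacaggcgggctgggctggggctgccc
Ciart: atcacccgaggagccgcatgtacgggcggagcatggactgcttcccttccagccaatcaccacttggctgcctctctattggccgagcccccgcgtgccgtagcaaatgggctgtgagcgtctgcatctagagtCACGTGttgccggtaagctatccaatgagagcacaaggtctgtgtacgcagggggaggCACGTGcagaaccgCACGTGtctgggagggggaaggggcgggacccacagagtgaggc

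The windows lie at chr11:69098699-69098948 on the plus strand for Per1, chr15:81802423-81802672 on the plus strand for Tef and chr3:95882229-95882478 on the minus strand for Ciart (GRCm38.p6). Per1 and Tef hold 1 E-box each and Ciart 3, at 116, 58 and 44 bases before its start. CACGTG reads alike on both strands, and it stood in 6 of 19 windows of clock genes (31.6%), from 14 genes matched, in 2 of 23 windows of DNA replication genes (8.7%), in 0 of 22 windows of mitosis genes and in 6.0% of all windows.

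**Figure D4:**
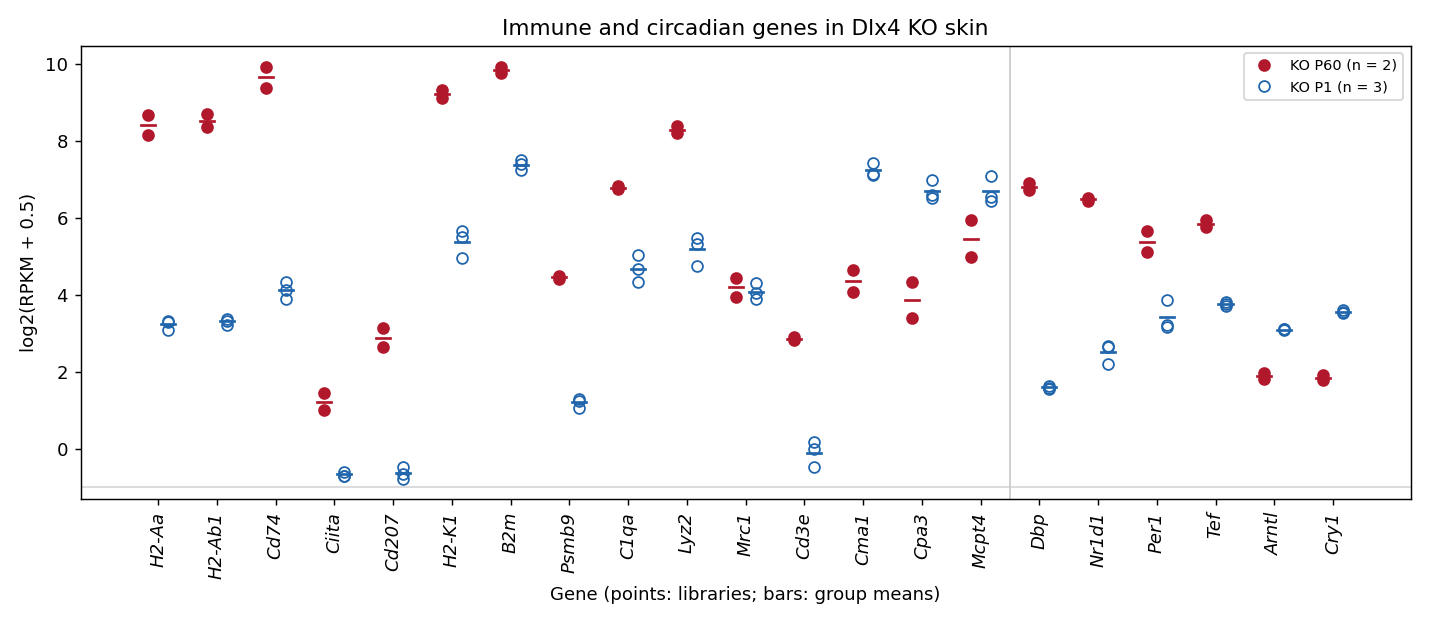
Immune genes (left of the grey line) and circadian clock genes (right) as log2(RPKM + 0.5) in each KO library. Filled circles are the 2 P60 libraries, open circles the 3 P1 libraries and bars the group means; MHC, macrophage and T cell genes lie higher and mast cell proteases lower at P60, Mrc1 overlaps, and Arntl and Cry1 lie opposite to Dbp and Nr1d1.

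Immediate early genes, which respond within minutes to stimuli and to tissue handling, were split, with 6 of 17 higher and 6 lower and a median of -0.06 (8 higher and 3 lower, at 0.28, with median-of-ratios factors). Egr1, a growth factor-induced transcription factor, had 15.2 and 9.22 RPKM at P60, against 46.6, 50.2 and 49.4 RPKM at P1. Klf2, a factor induced by blood flow, had 29.9 and 35.0 RPKM at P60, against 10.6, 7.58 and 7.60 RPKM at P1. Nr4a1, a nuclear receptor, had 34.1 and 27.3 RPKM at P60, against 9.64, 8.07 and 8.32 RPKM at P1. Egr1 was lower and the other two higher in each P60 library, with changes of -1.996 ± 0.19 (SE; adjusted p = 6.71e-05) for Egr1, 1.87 ± 0.16 (SE; adjusted p = 4.65e-05) for Klf2 and 1.76 ± 0.13 (SE; adjusted p = 2.35e-05) for Nr4a1.

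Energy metabolism leaned upward. Of 91 respiratory chain genes that passed 52 were higher and 5 lower, with a median of 0.51 (72 higher and 3 lower with median-of-ratios factors). Cox7a1 and Cox6a2, the muscle forms of 2 cytochrome oxidase subunits, led with 118 and 175 RPKM at P60, against 13.9, 8.002 and 9.29 RPKM at P1 for Cox7a1 and 248 and 403 RPKM at P60, against 61.6, 36.3 and 38.1 RPKM at P1 for Cox6a2. The P60 libraries were several times higher, by 3.76 ± 0.25 (SE; adjusted p = 1.38e-05) for Cox7a1 and 2.83 ± 0.28 (SE; adjusted p = 7.82e-05) for Cox6a2, and adult fast muscle genes rose in the same libraries; the part of muscle in the respiratory genes was not tested. Of 18 fatty acid oxidation genes 8 were higher and 3 lower (13 and 1 with median-of-ratios factors), and Cpt1b, the muscle form of the mitochondrial gate for fatty acids, had 31.1 and 46.2 RPKM at P60, against 15.1, 11.1 and 11.1 RPKM at P1. The picture of ribosomal protein genes depended on scaling. Of 76 cytosolic ones 18 were higher and 6 lower at a median of 0.11, with median-of-ratios factors 52 were higher and 1 lower at a median of 0.46, and after quantile normalization the median was -0.17. Mitochondrial ribosomal protein genes had 19 of 78 higher and 22 lower, at a median of -0.04, and with median-of-ratios factors 39 were higher and 10 lower, at a median of 0.29. Hox genes, which record body position, had 6 of 28 higher and 9 lower, at a median of -0.16, and with median-of-ratios factors 8 were higher and 6 lower, at a median of 0.15.

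Enzymes that process foreign and small molecules included further wide rises. Of 90 xenobiotic metabolism genes 28 passed, 14 higher and 12 lower, beside 22.8% higher and 50.5% lower among all genes tested. Of the 12 lower genes 6 changed by at least 1 on the log2 scale. The median of the list was 0.46, and 0.22 without KO P60 replicate 1. The genes named in this paragraph were higher at P60, and the lower ones are not described. Cyp2e1, which oxidizes ethanol and acetone, had 195 and 137 RPKM at P60, against 0.907, 2.04 and 1.28 RPKM at P1. Inmt, a methyltransferase of tryptamine and thioethers, had 22.5 and 60.0 RPKM at P60 and was listed at 0 in all P1 libraries. Gstm1, a glutathione transferase, had 117 and 135 RPKM at P60, against 24.6, 23.7 and 20.9 RPKM at P1. The P1 levels of Cyp2e1 were about 1 to 2 RPKM, and Gstm1 was already expressed at birth. The log2 change was 6.47 ± 0.25 (SE; adjusted p = 1.36e-06) for Cyp2e1 and 2.43 ± 0.12 (SE; adjusted p = 3.19e-06) for Gstm1. Mup10, of the major urinary proteins, had 111 and 63.5 RPKM at P60, against 0.00193, 0.00328 and 0.0261 RPKM at P1, with near-identical copies elsewhere in its cluster. Myoc, myocilin, had 27.3 and 35.1 RPKM at P60, against 0.0971, 0.0145 and 0 RPKM at P1, and Mmp3, a matrix protease of fibroblasts, had 93.0 and 32.0 RPKM at P60, against 0.698, 0.367 and 0.391 RPKM at P1. The 3 genes were below 1 RPKM in each P1 library, and changed by 7.37 for Mup10, 5.88 for Myoc and 5.82 for Mmp3. KO P60 replicate 1 held several times the Mmp3 of replicate 2, as it did of type I collagen in lesser degree.

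Whether the change with age differed between KO and WT was tested as a difference of differences over all 10 libraries and 14026 genes. No gene passed an adjusted p of 0.05 in limma, with 0.0878 the smallest, and 3214 genes had an unadjusted p under 0.05. The count moved with single P60 libraries, to 755 genes without KO P60 replicate 2 and 271 without WT P60 replicate 2, in fits where the remaining P60 library is assumed to vary like the other groups. In WT skin sex was fully mixed with age, since Xist had 0.0805 and 0.0477 RPKM in WT P60 skin, against 34.1, 34.3 and 37.6 RPKM in WT P1 skin. Both WT P60 libraries carried Y-linked RNA and no WT P1 library had more than a trace, unlike KO P1 replicate 2, so the genotypes were unbalanced for sex at P1. Without KO P1 replicate 2, both genotypes carried Xist at P1 and Y-linked RNA at P60, and 0 genes were called for the difference. Since 0 genes were also called with all 10 libraries, this count cannot show whether sex had a part. The part of sex in the difference was not tested. Across the 13735 members the KO and WT changes had a Pearson r of 0.94, a description across genes, which are not independent and were measured in the same 2 sequencing runs. In WT skin 10664 of 14026 genes (76.0%) were called with age. Of the 10078 genes called in KO skin, 8728 were called in the same direction in WT skin and 42 in the opposite direction, 40 of them higher with age in KO and lower in WT.

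The genes with the smallest p for the difference, chosen for that p, did not pass as tested and are given as a description. Without a filter the adjusted p was 0.029 for Fam8a1, 0.038 for Lmod2 and 0.0452 for Sla, and these 3 and Abra also passed without KO P60 replicate 2 or without WT P60 replicate 2. Fam8a1 had 4.51 and 3.71 RPKM in KO P60 skin against 12.1, 12.5 and 12.1 RPKM in KO P1 skin, and 1.51 and 1.70 RPKM in WT P60 skin against 13.4, 13.1 and 12.8 RPKM in WT P1 skin. It was lower with age in both genotypes, by less in KO, and the difference was 1.22 ± 0.14 (SE; adjusted p = 0.0878). Lmod2, leiomodin 2, an actin nucleator of muscle, had 65.8 and 63.2 RPKM in KO P60 skin against 12.5, 11 and 11.6 RPKM in KO P1 skin, and 148 and 118 RPKM in WT P60 skin against 9.91, 8.52 and 9.43 RPKM in WT P1 skin. It was higher with age in both genotypes, by less in KO, with a difference of -1.35 ± 0.17 (SE; adjusted p = 0.0878). Abra, an activator of actin signalling in striated muscle, showed the same order, with a difference of -1.75 ± 0.28 (SE; adjusted p = 0.104). Sla, an adaptor that restrains antigen receptor signalling, was higher with age in KO by 0.82 ± 0.11 (SE; adjusted p = 0.000432) and lower in WT, at -0.44 on the log2 scale, with a difference of 1.25 ± 0.18 (SE; adjusted p = 0.104).

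Among the lists whose medians differed most between the genotypes were matrix and macrophage genes. Proteoglycan and matricellular genes had a median change of -0.10 in KO and -1.40 in WT. Dermal collagens had a median change of -1.01 in KO and -2.07 in WT, elastic fibre genes -0.51 in KO and -1.78 in WT, macrophage genes 1.28 in KO and 0.09 in WT, and adult fast muscle genes 2.72 in KO and 3.60 in WT. All tested genes had medians of -0.32 in KO and -0.48 in WT, and none of the genes in these lists passed the test of the difference. Col1a1, which averaged 6225 RPKM in KO P60 skin (SD 3631, n = 2), averaged 1715 RPKM in WT P60 skin, and its difference was 1.74 ± 0.45 (SE; adjusted p = 0.111). Krt71 and Myh4, at the ends of the scale, changed in KO and WT by amounts that differed by -0.18 ± 0.34 (SE; adjusted p = 0.787) for Krt71 and -0.58 ± 0.66 (SE; adjusted p = 0.619) for Myh4.

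**Figure D5:**
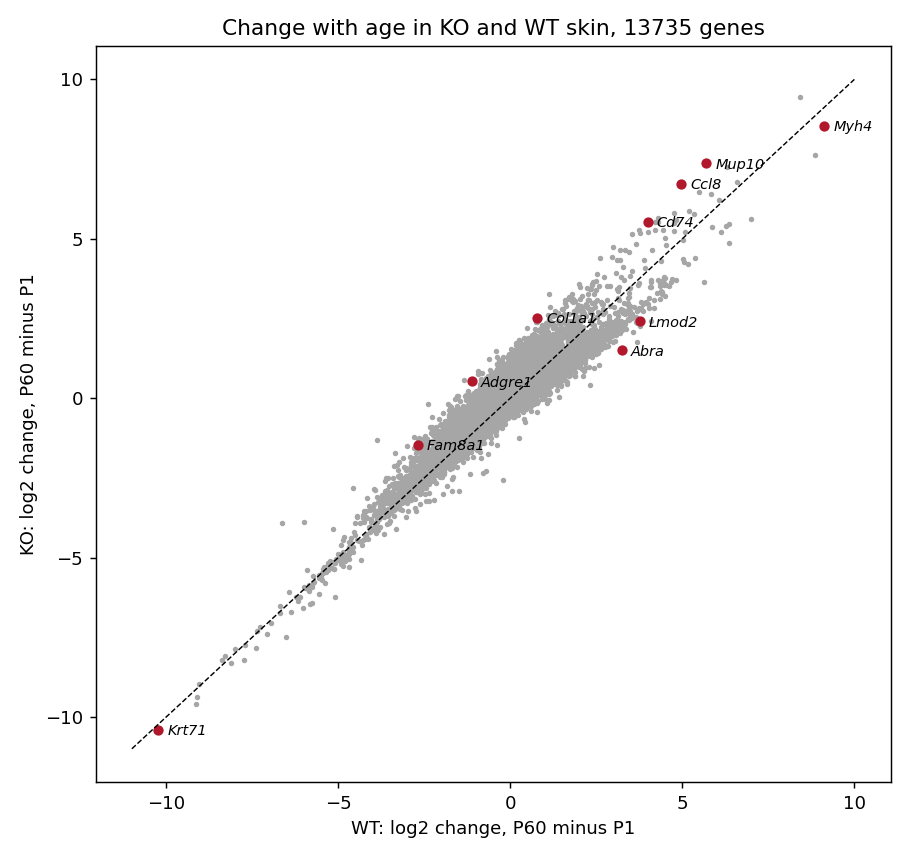
Log2 change with age (P60 minus P1, log2(RPKM + 0.5) scale) of the 13735 members, in KO skin on the vertical axis and WT skin on the horizontal axis, with labelled genes marked in red and the dashed line at equal change. The points follow the line with a Pearson r of 0.94; Col1a1, Cd74 and Ccl8 lie above it, and Lmod2 and Abra below it.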

How the data were processed

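Total RNA of dorsal skin was sequenced on a HiSeq instrument after cDNA and library preparation with NEBNext and NuGen kits, per the labels' protocols. Reads were aligned to mm10 with TopHat2 2.1.0 and expression was calculated in Partek, per the submitters' processing notes; no annotation version is given in the sources used here. RPKM, computed by the authors, fill the deposited gene table, and a sheet of libraries holds the number of alignments, a count made by the authors, between 36131011 and 74916106 per library. Of the gene symbols 26 read as dates, and 3948 entries were at 0 in all 5 KO libraries.

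Groups were taken from the sample titles. Tests were run on log2(RPKM + 0.5) in limma 3.58.1 (R 4.3.3) with a mean-variance trend, using the 5 KO libraries for age and all 10 libraries, with a mean per group, for the difference between KO and WT. The fit kept genes that reached 1 RPKM in 2 or more of its libraries, and p-values were adjusted by the Benjamini-Hochberg method over all genes tested. Since RPKM are not counts, no count test was made. Fold changes are on the log2(RPKM + 0.5) scale, which understates changes of low genes. The members, 51 gene lists and tests were chosen with earlier results of these data known. The lists held 1172 symbols, with repeats, of which 1169 were found in the table. Genes named were the 15 widest changes in each direction among called genes with at least 5 RPKM on average at an age and no overlap between ages, passing over predicted and noncoding entries, the 4 of the smallest p and the 2 of the highest level in each list, the Dlx genes, fixed fetal and adult muscle pairs, and for the difference 5 in each direction of the smallest p. Some are left out for length, and other genes, list members shown as examples and the counterparts that did not pass, were chosen after their values were seen. Promoter windows are RefSeq sequences of GRCm38.p6, matched by symbol.

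Alternatives were pseudocounts of 0.1 and 1, no filter, a mean of at least 5 RPKM, median-of-ratios and quantile scaling, a replicate block, no variance trend, all 10 libraries in the fit, and each library left out. On simulated data with the same numbers of libraries, limma recovered 72% of genes changed by 1 and 94% of those changed by 2 on the log2 scale between ages, with 6 unchanged genes called among 13265, and 61% and 92% for the difference, with 5 unchanged genes called among 13546. Only 100 genes were changed by each size, all above a minimum level at P1, and noise was drawn independently for each gene and library. No shift of scaling or tissue make-up was simulated. The shares therefore do not carry over to these data, where 73.4% of genes were called.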

Additional observations from a re-analysis of the deposited data

How the results depend on the processing

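No gene called higher or lower with age in KO skin was called in the opposite direction under any alternative. The total of 10078 called genes (3138 higher, 6940 lower) was within 1.5 times of itself under the other pseudocounts, no filter, quantile scaling, no variance trend, all 10 libraries in the fit and each library left out, the last with 8800 to 9956 genes called. It was 6553 (2008 higher, 4545 lower) with a mean of at least 5 RPKM, since fewer genes were tested, and median-of-ratios factors gave 4805 higher and 4858 lower. With KO P1 replicate 2 as the only P1 library, an alternative chosen after seeing the data, 6636 genes were called (2204 higher, 4432 lower), with fewer samples in the fit. Whether the replicate numbers in the titles pair the KO libraries could not be settled. Deviations from the group means of same-numbered libraries had a correlation of -0.21 for number 1 and -0.16 for number 2 across genes. The deviations of the 2 P60 libraries mirror each other, so these values are not separate checks and cannot exclude a pairing. With the replicate block 8820 genes were called (2660 higher, 6160 lower), and 0 for the difference between KO and WT. Since P60 has no replicate 3, the block estimated changes with age as if KO P1 replicate 3 were left out, so these 2 alternatives are not separate. Adipoq changed by -0.64 in both and passed the threshold in limma, with an adjusted p of 0.0165 with the block and 0.0183 without that library. The difference had 2 called genes with a pseudocount of 0.1, 21 without a filter, 3 with median-of-ratios factors and 0 to 755 with a library left out, and the cause was not tested.

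Some signs turned. With median-of-ratios factors the log2 change was 0.31 for Isg15, 0.21 for Krt14, 0.078 for Lck and 0.26 for Myod1, and after quantile normalization it was -0.19 for Col3a1, 0.37 for Isg15, -0.64 for Krt5, 0.24 for Lck and 0.33 for Myod1. With each library left out in turn the change ranged from -0.13 to 0.13 for Isg15, -1.01 to 0.22 for Cidea, -0.37 to 0.023 for Lck, -0.13 to 0.35 for Mrc1 and -0.17 to 0.15 for Myod1, and with KO P1 replicate 2 alone Myod1 was 0.12. List medians turned to 0.25 (proteoglycans and matricellular proteins), 0.21 (basal epidermis), 0.039 (sebaceous gland), 0.30 (endothelium), 0.28 (immediate early genes), 0.29 (mitochondrial ribosomal proteins) and 0.15 (Hox genes) with median-of-ratios factors, to 0.37 (endothelium), 0.041 (immediate early genes), -0.17 (cytosolic ribosomal proteins), 0.19 (mitochondrial ribosomal proteins) and 0.21 (Hox genes) after quantile normalization, and to -0.11 (white adipocyte) with a mean of at least 5 RPKM. With each library left out in turn they ranged from -0.40 to 0.11 (proteoglycans and matricellular proteins), -0.15 to 0.0033 (basal epidermis), -0.80 to 0.11 (sebaceous gland), -0.11 to 0.069 (endothelium) and -0.15 to 0.069 (mitochondrial ribosomal proteins), and with KO P1 replicate 2 as the only P1 library they turned to 0.0099 (endothelium), 0.057 (mitochondrial ribosomal proteins) and -0.88 (sex-linked genes). With KO P1 replicate 2 as the only P1 library, Dhcr7, Ezh1, Gata3, Krt10, Krt6a, Lor, Mcpt4, Hba-a1 and Ndn were no longer called. The 2 P60 libraries set the precision, and RPKM give no interval for low genes.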

Other observations

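Keratins of the outer root sheath and of stressed epidermis were split with age in KO skin. Of 7 such genes 4 were lower and 2 higher at P60, with a median log2 change of -1.40, which was -0.83 without KO P60 replicate 2 and -1.63 without KO P60 replicate 1. Krt75, the keratin of the companion layer between the root sheaths, had 14.6 and 24.6 RPKM at P60, against 65.9, 91.1 and 77.1 RPKM at P1, and Krt16, induced in stressed epidermis, had 16.4 and 9.98 RPKM at P60, against 53.3, 41.4 and 42.9 RPKM at P1. Both were lower in each P60 library, with changes of -1.999 ± 0.22 (SE; limma adjusted p = 0.000154) for Krt75 and -1.79 ± 0.21 (SE; adjusted p = 0.000179) for Krt16. Krt6a, expressed in the companion layer and in wounds, went the other way, with 90.1 and 71.2 RPKM at P60, against 49.4, 57.6 and 47.2 RPKM at P1 and a change of 0.64 ± 0.14 (SE; adjusted p = 0.00412), which missed the threshold with all 10 libraries in the fit (adjusted p = 0.0919).

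Of 12 brown adipocyte genes 8 passed the filter, 4 of them higher and 2 lower, with a median of 0.54. That median was 0.22 without KO P60 replicate 2, 0.79 with median-of-ratios factors and 1.02 after quantile normalization. The list shares Cox7a1 and Cpt1b with muscle and Elovl3 with the sebaceous gland, so it does not mark brown fat alone. Cidea, a lipid droplet protein of brown fat and sebocytes, had 18.0 and 7.36 RPKM at P60, against 14.7, 15.9 and 15.4 RPKM at P1, and overlapped between the ages. Its change ran from -1.01 without KO P60 replicate 1, where it was called lower, to 0.22 without KO P60 replicate 2. Of the 5 sex-linked genes none was called with age by limma, and 1, Xist, had an unadjusted p under 0.05.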
